A study of Mus musculus with 8 samples.

Results

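The genes described here write, read or erase repressive chromatin marks: the Polycomb complexes that act through lysine 27 of histone H3 (H3K27), the enzymes and readers of methylated lysine 9 of histone H3 (H3K9), the DNA methyltransferases and the histone deacetylases. The 39 genes were chosen by name, for these functions, and looked up through their Ensembl mouse gene IDs. All 39 were among the 29844 genes of the deposited coding table. Their RNA was measured by sequencing in primary heart cells of mouse embryos at E18.5, shortly before birth. The embryos of both groups were B6.Cg-Tg(HIST1H2BB/EGFP)1Pa/J, so that both groups carry a transgene for the human histone H2B fused to green fluorescent protein. The hearts were dissected out and digested to single cells, which the labels call embryonic cardiomyocytes, and the cells were grown to confluence for 4 days in medium with serum on silicone (PDMS) of differing stiffness. The soft group (about 10 kPa, 4 libraries) was compared with the stiff group (about 150 kPa, 4 libraries) to ask what substrate stiffness does to expression. The labels name no sort, do not say how many hearts were pooled per library, and do not say whether libraries of a group came from separate litters, so a p-value here weighs a difference only against the scatter of these libraries, some of which may be technical.

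Polycomb repressive complex 2 (PRC2) places methyl groups on H3K27 through its catalytic subunits Ezh1 or Ezh2, and PRC1 binds that mark through its Cbx subunits and ubiquitinates histone H2A through Ring1 and Rnf2. Constitutive heterochromatin rests on methylated H3K9, which Suv39h1, Suv39h2, Setdb1, Ehmt1 and Ehmt2 write and the HP1 proteins (Cbx1, Cbx3, Cbx5) bind. In the heart, loss of Ezh2 in progenitors disturbs postnatal gene silencing, and class IIa deacetylases hold back the growth programme driven by MEF2 factors and leave the nucleus when they are phosphorylated. Several of these genes, above all Uhrf1, Dnmt1, Suv39h1 and Ezh2, are known to be transcribed mainly in dividing cells.

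Library totals in the coding table ran from 27646471 to 34693673 counts. Cardiomyocyte markers were present in every library, at differing levels. Tnnt2 ran from 2076 to 4026 CPM (read counts scaled to a common library size with TMM factors) and Nkx2-5 from 4.66 to 15.6 CPM. The 10 cardiomyocyte markers summed to 22440.4 to 39197 CPM, the highest in soft 4. Markers of other cell types were present as well: 8 fibroblast markers summed to 7623 to 14687 CPM, 6 mural markers to 204 to 380.3, 6 endothelial markers to 150.2 to 259, 6 leukocyte markers to 104 to 175 and 5 epicardial markers to 398 to 604 CPM. Kcnj8 (mural) and C1qa (leukocyte) were at 0 in at least 1 library. All 6 mural markers had lower estimates on stiff (median log2 fold change -0.57), as did 51.9% of all tested genes. The largest were at low mean levels: Kcnj8 (0.83 CPM, -0.96), Rgs5 (4.11 CPM, -0.86) and Myh11 (10.1 CPM, -0.62). The most abundant, Cspg4 (114 CPM, -0.04) and Pdgfrb (103 CPM, -0.09), hardly differed. Of the 6, Notch3 (36.4 CPM, -0.52) had an edgeR p of 0.0391 before adjustment across all genes (adjusted p = 0.99997). None of the summed levels passed a test between substrates (exact permutation test, two-sided, lowest p = 0.457, for fibroblasts, where 0.0286 is the smallest p that 4 against 4 allows).

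On 3 summary measures the libraries split across the substrates. Over all tested genes, pairs of libraries were compared by chi-square per degree of freedom. It was 45.8 to 59.3 among soft 1, soft 2, stiff 1 and stiff 2. Between these and soft 3, soft 4, stiff 3 and stiff 4 it was 91.3 to 237. The latter 4 did not form a cluster of their own. Soft 3 and stiff 3 were near each other (55.7), but soft 4 differed from every library by at least 116. Soft 3 was nearer to soft 1 (91.3) than to soft 4 (116). A proliferation score (the mean over 35 cell cycle genes, none of them a member, of log2 CPM centred on each gene) was 0.39, 0.53, 0.51 and 0.58 in soft 3, soft 4, stiff 3 and stiff 4. It was -0.48, -0.51, -0.56 and -0.44 in soft 1, soft 2, stiff 1 and stiff 2. Of the 35 genes, 27 were higher in each of the former 4 libraries than in any of the latter 4, an order that 7.03% of all tested genes showed. The fibroblast sum split the same way, with 11353 to 14687 CPM in the former and 7623 to 9098 CPM in the latter. Of the 8 fibroblast markers, 5 had that order and 1, Pdgfra, had the reverse order. The sum of 4 Y-linked genes split the opposite way, with 192 to 295 and 436 to 724 CPM. These are sets of libraries seen in the data and not groups of the study. The part of proliferation, fibroblast and Y-linked RNA in the values of the members was not tested.

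No member changed between soft and stiff in a way that the test could detect. Of the 39 members, 38 passed the filter on low counts and 0 were called at an adjusted p under 0.05 by edgeR's quasi-likelihood test, where 0.0% of 14059 tested genes were called with no adjusted p below 0.99997. Without adjustment, 0 of 38 members were under 0.05 with edgeR (0.925% of all tested genes). The member count was also 0 with limma-voom, where 181 of the same 14059 genes were under 0.05. It was 0 with DESeq2 too, where 322 coding genes were under 0.05. DESeq2 was run on all genes with any count and not on the filtered genes, so 322 is out of another total. Estimates were lower on stiff for 24 members and higher for 14, a share of 63.2% lower beside 51.9% of all tested genes, with a median log2 fold change (stiff over soft) of -0.07 for members and -0.01 for all. In this fit all 38 estimates lay within 1.5-fold, as did 12433 of the 14059 tested genes. The member estimates ran from -0.39 (Cbx8) to 0.32 (Suv39h2) on the log2 scale. In RNA from whole cultures, fewer cells of a type and less RNA per cell cannot be told apart.

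The intervals say how large a difference could have been missed in the fit with substrate as the single term. They include the scatter between the sets of libraries described above, for which this fit has no term. In it 0.925% of all tested genes were under an unadjusted edgeR p of 0.05, beside 2.56% with the library number as a block. For 30 of the 38 members the unadjusted 95% interval lay wholly inside a 2-fold change in either direction (64.6% of all tested genes), and for 20 of them it lay inside 1.5-fold (29.5% of all). Taken as a distance from the estimate, the interval of a member was 1.36-fold in the median, against 1.51-fold for all tested genes. The 8 members whose interval reached past 2-fold were Ring1, Cbx2, Cbx7, Cbx8, Suv39h1, Suv39h2, Dnmt3b and Uhrf1. Across the set, 18 members overlap another RefSeq gene, among them Setdb1 (Cers2), Cbx7 (Apobec3), Hdac7 (Slc48a1) and Suv39h2 (Dclre1c), and strand handling in the counting is not given in the sources used here, so shared reads make those counts uncertain. The ranges of soft and stiff were separate for 1 member, Ehmt1 (1.29% of all tested genes did not overlap).

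**Figure D1:**
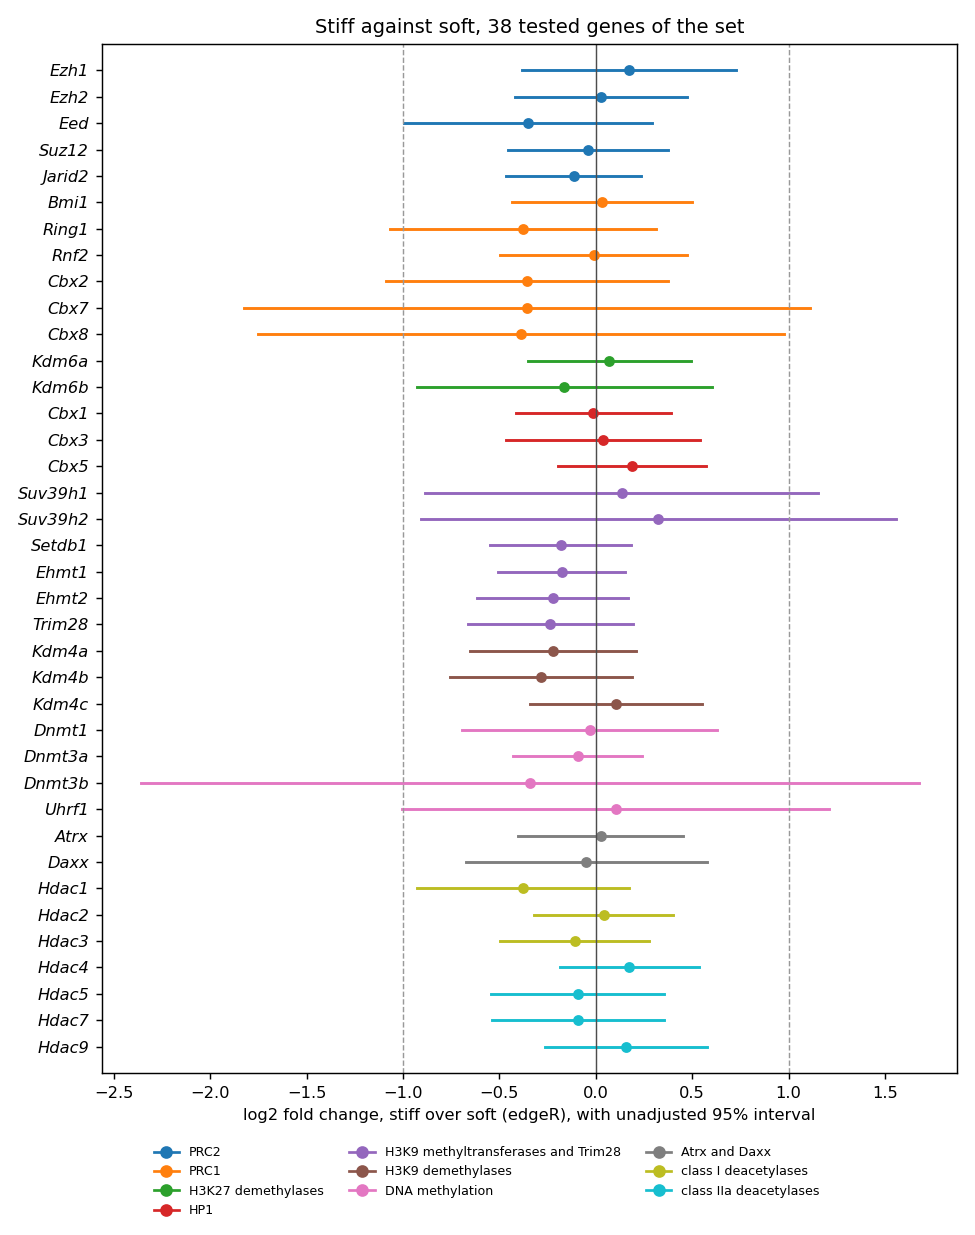
Log2 fold change of stiff over soft for the 38 tested members (points) with their unadjusted 95% intervals from edgeR (bars), coloured by role, with dashed lines at 2-fold. Every interval crosses 0, and the widest belongs to Dnmt3b, from -2.36 to 1.67.

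None of the 5 PRC2 genes passed the test, with 3 estimates lower and 2 higher on stiff. Ezh2, the catalytic subunit of dividing cells, had 38.8, 47.6, 65.5 and 42.1 CPM in soft 1 to soft 4 and 42.3, 52.4, 46.2 and 56.9 CPM in stiff 1 to stiff 4. Soft 3 was highest and soft 1 lowest, so that the soft values spanned the stiff ones (log2 fold change 0.03, 95% interval -0.42 to 0.47). Ezh1, the catalytic subunit that persists in non-dividing cells, had 41.5, 48.1, 39.2 and 27.2 CPM in soft 1 to soft 4 and 52.9, 60.9, 32.1 and 29.8 CPM in stiff 1 to stiff 4. Here soft 3, soft 4, stiff 3 and stiff 4 held the 4 lowest values, an order that 6.22% of all tested genes showed, and the log2 fold change was 0.17, 95% interval -0.38 to 0.72. The count ratio of Ezh2 to Ezh1 was 1.67, 1.55, 1.44 and 1.91 in those libraries, against 0.937, 0.991, 0.798 and 0.861 in soft 1, soft 2, stiff 1 and stiff 2. Ezh2 itself did not separate these libraries, and no share of gene pairs with such a separation is given, so nothing is read from it. Exon lengths were not used here, so the ratio compares libraries and does not say which of the genes has more RNA molecules.

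The other PRC2 subunits differed in how far libraries spread. Eed, which binds methylated H3K27 and activates the enzyme, had 71.1, 110.2, 72.6 and 49.9 CPM in soft 1 to soft 4 and 57.9, 82.6, 28.5 and 69.2 CPM in stiff 1 to stiff 4. Soft 2 and stiff 3 stood at its extremes, 3.87-fold apart. The log2 fold change was -0.35, 95% interval -0.99 to 0.29, and it went to -0.11 without soft 2 and to -0.12 without stiff 3. With limma-voom and the library number as a replicate block the unadjusted p of Eed was 0.0451, the lowest p of a member under any setting, where 3.07% of all tested genes were under 0.05 and 0.0569% were called after adjustment. With edgeR and that block the p of Eed was 0.0698, and 2.56% of all tested genes were under 0.05. Suz12, the scaffold subunit, had 165, 218, 149 and 122 CPM in soft 1 to soft 4 and 134, 196, 148 and 158 CPM in stiff 1 to stiff 4 (log2 fold change -0.04, 95% interval -0.45 to 0.38). Its values in the groups overlapped, with soft 2 and stiff 2 highest. Jarid2, which helps to bring PRC2 to its targets, ranged from 75.02 to 98.2 CPM over the 8 libraries and had a coefficient of variation (CV, SD over mean of the 8 libraries) of 9.62%, where the median tested gene had 26.98%.

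PRC1 genes had 5 lower and 1 higher estimates on stiff among 6 tested, and none passed. Ring1, an E3 ligase subunit for histone H2A, had 12.5, 10.2, 10.96 and 12.6 CPM in soft 1 to soft 4 and 11.5, 9.56, 6.15 and 8.38 CPM in stiff 1 to stiff 4. Stiff 3 and stiff 4 were the lowest, but soft 2 lay below stiff 1 and the groups overlapped (log2 fold change -0.38, 95% interval -1.07 to 0.31). Cbx2, a chromobox subunit that compacts chromatin, had 11.1, 9.64, 8.79 and 11.1 CPM in soft 1 to soft 4 and 8.46, 5.41, 10.3 and 7.54 CPM in stiff 1 to stiff 4. Stiff 2 was lowest and stiff 3 lay inside the soft range (log2 fold change -0.36, 95% interval -1.09 to 0.37). Rnf2, the main E3 ligase, ranged from 84.2 to 177 CPM, and Bmi1, its partner that raises ligase activity, from 54.6 to 104 CPM, with log2 fold changes of -0.01 and 0.03. The chromobox genes Cbx7 and Cbx8 stood at 3.29 ± 0.792 (soft) and 2.57 ± 1.58 CPM (stiff) and at 4.36 ± 1.43 (soft) and 3.33 ± 2.35 CPM (stiff) (mean ± SD of 4 libraries). Both rest on few reads, with 38 to 137 counts per library for Cbx7 and 23 to 215 for Cbx8. The estimates of these genes depended on the libraries used: Cbx7 was at 0.36 with libraries 1 and 2 of each substrate alone and at -1.21 with libraries 3 and 4 alone, and Cbx8 at -1.03 and -0.068. Leaving out stiff 1 took Cbx7 to -0.86, and leaving out stiff 3 or stiff 2 took Cbx8 to -0.93 or -0.058. Ring1 was at -0.69 with libraries 3 and 4 alone.

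Cbx6, the remaining chromobox gene of the set, had 0 counts in all 8 libraries and was the member that failed the filter. A count of 0 allows up to 3 counts, or from 0.0876 to 0.107 CPM per library, counting error only. The gene (chromosome 15, 79823898 to 79834333 on GRCm38.p6) lies wholly inside the span of Npcd (79786351 to 79834333), a RefSeq protein-coding gene that was listed with 2 to 90 counts per library. Whether reads of Cbx6 were assigned elsewhere was not tested, and its expression is not described here.

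The erasers of H3K27 methylation did not pass the test either. Kdm6a, an X-linked demethylase, ranged from 79.02 to 127 CPM (log2 fold change 0.07, 95% interval -0.35 to 0.49), and Kdm6b, an inducible demethylase, from 5.04 to 13.6 CPM (-0.16, 95% interval -0.93 to 0.60). Uty, the Y-linked relative of Kdm6a, had 121, 183, 43.7 and 41.4 CPM in soft 1 to soft 4 and 93.2, 145, 72.4 and 63.2 CPM in stiff 1 to stiff 4. Its values were higher in soft 1, soft 2, stiff 1 and stiff 2 than in the other four. By contrast, Kdm6a was lowest in stiff 3 and highest in stiff 2 and did not follow that split.

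The 3 HP1 genes had CVs from 15.9% to 19.2%, below the median tested gene, and none passed the test. Cbx5 (HP1 alpha) had 328, 341, 377 and 380.1 CPM in soft 1 to soft 4 and 293, 391, 429 and 510.3 CPM in stiff 1 to stiff 4. Stiff 4 and stiff 3 were the highest and stiff 1 the lowest of all libraries, and the log2 fold change was 0.19, 95% interval -0.20 to 0.57. It kept its sign under all 18 alternatives. Cbx1 (HP1 beta) had 81.8, 86.9, 72.2 and 70.2 CPM in soft 1 to soft 4 and 56.97, 69.00, 90.9 and 91.6 CPM in stiff 1 to stiff 4. Within stiff, stiff 3 and stiff 4 lay above all soft libraries and stiff 1 and stiff 2 below them, which left a log2 fold change of -0.01, 95% interval -0.42 to 0.39. Cbx3 (HP1 gamma) had 24.03, 40.9, 31.1 and 23.3 CPM in soft 1 to soft 4 and 33.5, 29.6, 33.1 and 26.3 CPM in stiff 1 to stiff 4 (log2 fold change 0.04, 95% interval -0.47 to 0.54). Soft 2 stood above the others, and the groups overlapped. RefSeq names 6 pseudogenes after Cbx3, so that its counts are uncertain where reads fit several copies.

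The H3K9 methyltransferases split into genes that hardly varied and genes that varied several-fold between libraries. Ehmt1, which forms the G9a/GLP complex for mono- and dimethylation with Ehmt2, had 109, 118, 116 and 104 CPM in soft 1 to soft 4 and 103, 88.02, 103 and 101 CPM in stiff 1 to stiff 4. The gene lies at chromosome 2, 24790769 to 24919643. Every soft value was above every stiff value, by a narrow margin (soft 4 at 104 and stiff 1 at 103 CPM). The log2 fold change was -0.18, 95% interval -0.51 to 0.15, and it did not pass the test. Ehmt2 (G9a) had 89.1, 69.8, 90.6 and 109 CPM in soft 1 to soft 4 and 74.7, 70.2, 93.8 and 68.5 CPM in stiff 1 to stiff 4, with overlap between the groups (log2 fold change -0.22, 95% interval -0.61 to 0.17). Setdb1, the trimethylase that Trim28 recruits, had 59.8, 64.5, 65.02 and 59.03 CPM in soft 1 to soft 4 and 51.9, 60.2, 50.4 and 56.4 CPM in stiff 1 to stiff 4. Stiff 2 lay within the soft range, and the log2 fold change was -0.18, 95% interval -0.55 to 0.18. Trim28 (KAP1), a corepressor, had 157, 121, 183 and 249 CPM in soft 1 to soft 4 and 142, 156, 166 and 137 CPM in stiff 1 to stiff 4. Soft 4 was highest, and the log2 fold change of -0.24, 95% interval -0.66 to 0.19 turned to 0.11 in a fit of soft 1, soft 2, stiff 1 and stiff 2 alone and was -0.51 in soft 3, soft 4, stiff 3 and stiff 4 alone. CVs were 8.86% for Ehmt1, 9.09% for Setdb1 and 17.6% for Ehmt2.

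Suv39h1 and Suv39h2, the trimethylases of pericentric heterochromatin, had larger CVs, and their values in every library are given because of that spread, seen in the data. Suv39h1 had 19.98, 4.19, 27.96 and 28.5 CPM in soft 1 to soft 4 and 12.7, 18.6, 29.5 and 27.7 CPM in stiff 1 to stiff 4. The 4 highest values, within 27.7 to 29.5 CPM, were those of soft 3, soft 4, stiff 3 and stiff 4. This order was shown by 7.03% of all tested genes, and soft 2 was lowest by a wide gap. Suv39h2 had 10.7, 2.32, 9.85 and 8.08 CPM in soft 1 to soft 4 and 3.56, 3.44, 16.97 and 14.8 CPM in stiff 1 to stiff 4. Soft 2, stiff 1 and stiff 2 were lowest, stiff 3 and stiff 4 highest, and soft 1 stood with soft 3 and soft 4. The CVs were 43.1% and 62.2%, above those of 73.9% and 85.2% of all tested genes. Their log2 fold changes between substrates were 0.13, 95% interval -0.89 to 1.15 and 0.32, 95% interval -0.91 to 1.55. For Suv39h2 the estimate was -0.90 among soft 1, soft 2, stiff 1 and stiff 2 alone and 0.83 among the other four alone. Of the pair, Suv39h2 shares its locus (chromosome 2, 3455815 to 3474986) with the DNA repair gene Dclre1c, and Suv39h1 (chromosome X, 8061171 to 8074760) overlaps no other RefSeq gene.

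Among the H3K9 demethylases, Kdm4b had 78.7, 59.1, 93.3 and 115 CPM in soft 1 to soft 4 and 77.5, 52.4, 90.8 and 63.7 CPM in stiff 1 to stiff 4. Soft 4 was highest and stiff 2 lowest, and stiff 3 lay near the upper soft values (log2 fold change -0.28, 95% interval -0.75 to 0.19). Kdm4a had 85.03, 58.1, 84.02 and 108 CPM in soft 1 to soft 4 and 68.1, 68.4, 61.5 and 89.5 CPM in stiff 1 to stiff 4 (log2 fold change -0.22, 95% interval -0.65 to 0.21). Soft 2 was the lowest of its 8 values and soft 4 the highest. Kdm4c ranged from 72.3 to 143 CPM, with a log2 fold change of 0.10, 95% interval -0.34 to 0.55, and its 4 lowest values were those of soft 3, soft 4, stiff 3 and stiff 4, as for Ezh1.

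The 2 genes of maintenance DNA methylation were highest in soft 3, soft 4, stiff 3 and stiff 4. This order was shown by 7.03% of all tested genes, and neither gene passed the test between substrates. Uhrf1, which recognises hemimethylated DNA after replication and brings in Dnmt1, had 21.6, 12.98, 37.9 and 55.1 CPM in soft 1 to soft 4 and 19.3, 14.5, 49.00 and 54.2 CPM in stiff 1 to stiff 4. It was highest in soft 4, stiff 4, stiff 3 and soft 3 and lowest in soft 2 and stiff 2, 4.25-fold between the extremes. The stiff against soft log2 fold change was 0.10, 95% interval -1.003 to 1.21. Dnmt1, the maintenance methyltransferase, had 79.96, 59.8, 116 and 144 CPM in soft 1 to soft 4 and 68.04, 65.9, 106 and 152 CPM in stiff 1 to stiff 4. The same 4 libraries were highest, 2.53-fold between the extremes (log2 fold change -0.03, 95% interval -0.69 to 0.63). The genes lie at chromosome 17, 56303337 to 56323486 (Uhrf1), and chromosome 9, 20907206 to 20959888 (Dnmt1), on GRCm38.p6. The proliferation score, the fibroblast sum and, inversely, the Y-linked sum split the same libraries as given above. Their part in the pattern was not tested.

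The de novo methyltransferases differed from each other in spread. Dnmt3a, which sets methylation during cardiomyocyte maturation, had 184, 207, 171 and 197 CPM in soft 1 to soft 4 and 197, 163, 167 and 184 CPM in stiff 1 to stiff 4. With a CV of 8.74% it was the steadiest member, and 1.30% of all tested genes had a lower CV; its log2 fold change was -0.10, 95% interval -0.43 to 0.24. Dnmt3b, the enzyme of early embryonic cells, had 88 to 146 counts in 7 libraries and 0 in stiff 3. Its log2 fold change was -0.34 with a 95% interval from -2.36 to 1.67, and 0.07 without stiff 3; limma-voom gave -2.04 with all 8 libraries, and libraries 3 and 4 alone gave -1.29. Stiff 3 held 26 of the 31 genes of the coding table that had 0 counts in a single library and at least 50 in each of the other 7.

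**Figure D2:**
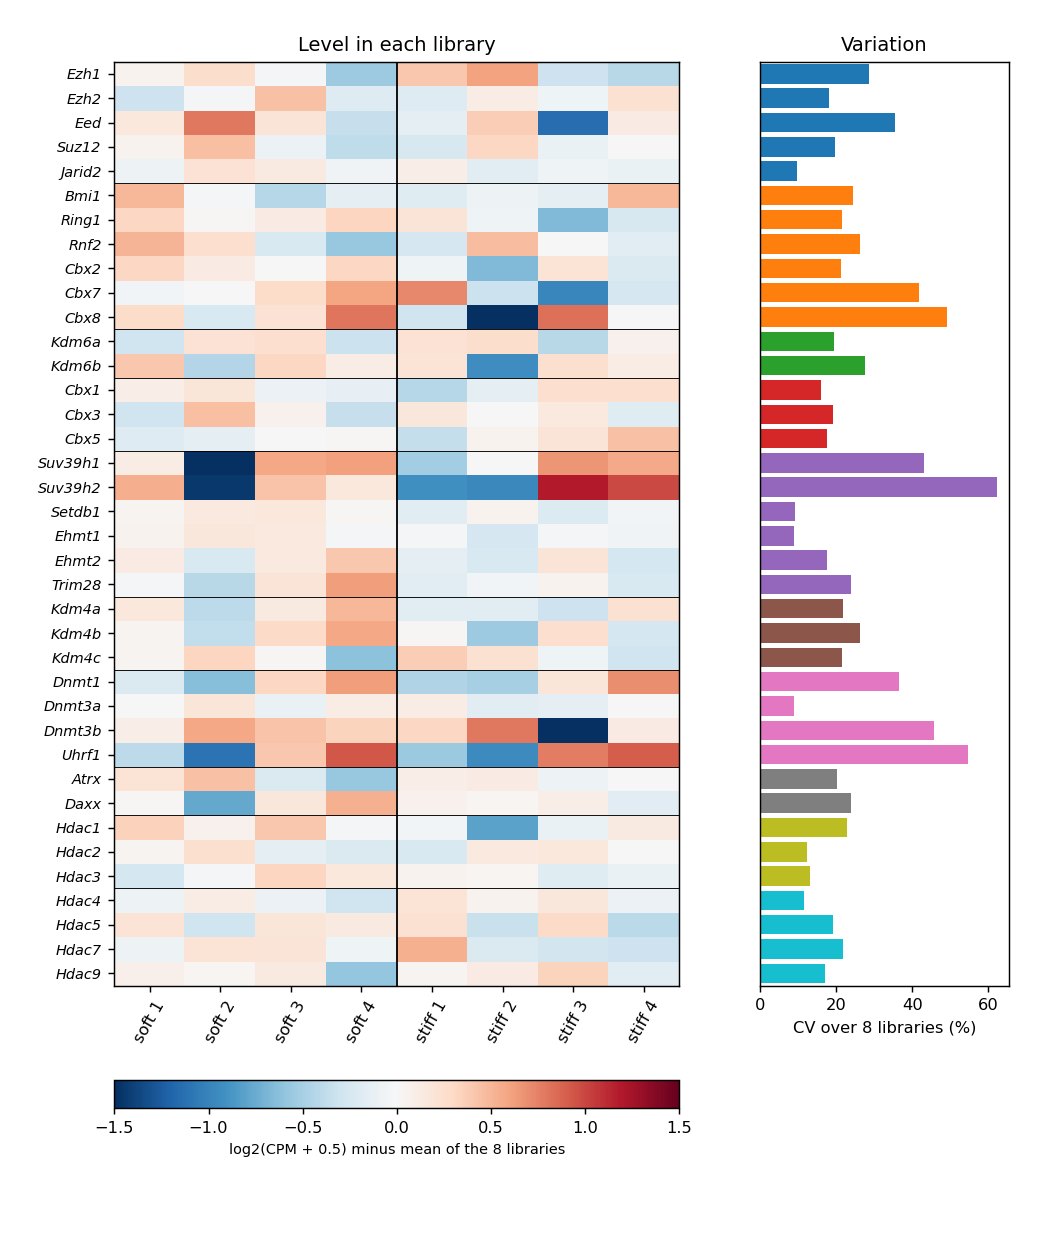
Level of each tested member in each library as log2(CPM + 0.5) minus its mean over the 8 libraries (left, colours capped at 1.5) and its CV over the 8 libraries in percent (right, coloured by role). Uhrf1 and Dnmt1 are above their mean in soft 3, soft 4, stiff 3 and stiff 4, and Suv39h2, Uhrf1 and Cbx8 have the longest bars.

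**Figure D3:**
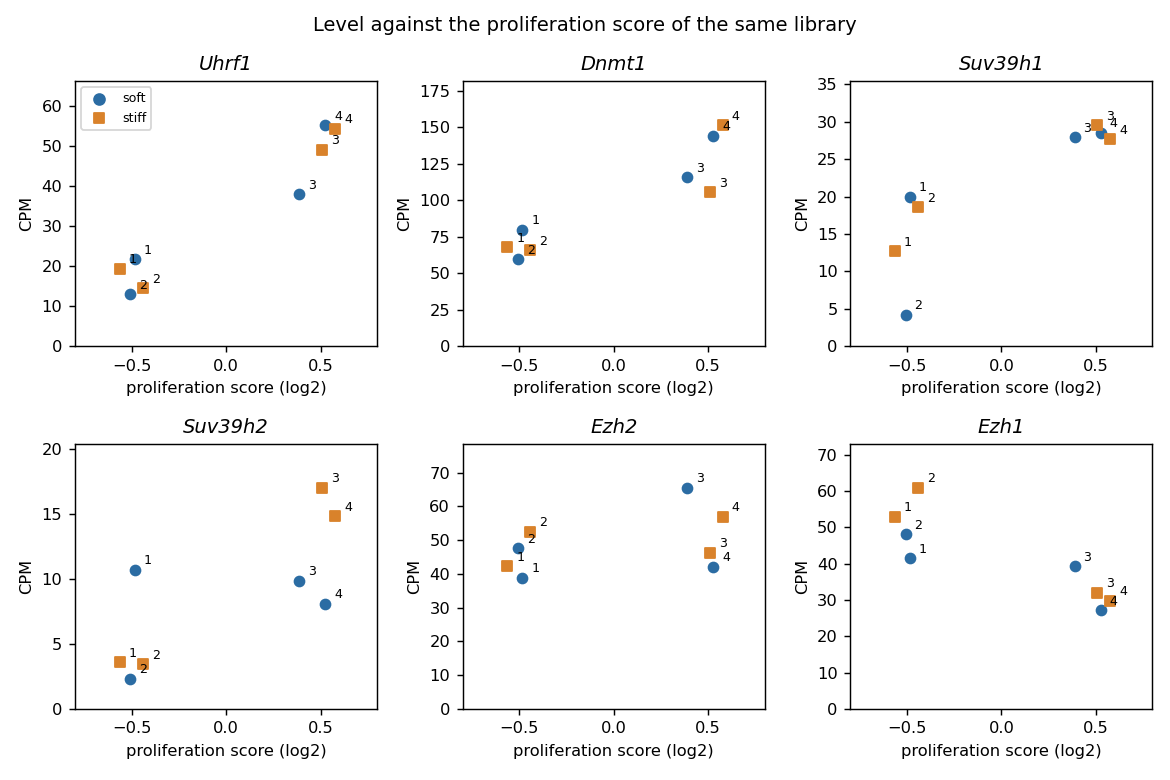
CPM of 6 members against the proliferation score of the same library (circles soft, squares stiff, numbers give the library). The score separates the libraries into 4 low and 4 high, with Uhrf1, Dnmt1 and Suv39h1 higher at the high scores, Ezh1 lower and Ezh2 at 38.8 to 65.5 CPM without a split.

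Because the libraries formed separate clusters on the score, a correlation over all 8 was not computed. Counting the order alone, 3 of the 38 members (Uhrf1, Dnmt1 and Suv39h1) had their 4 highest values in soft 3, soft 4, stiff 3 and stiff 4, which is 7.89% beside 7.03% of all tested genes. Another 3 (Ezh1, Kdm4c and Atrx) had their 4 lowest values there, also 7.89%, beside 6.22%. Both shares were near the background, so nothing is read from the order for the members as a set.

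The promoters of these genes were read for motifs known from cell cycle genes. E2F factors bind DNA of the form TTTCCCGC, TTTGGCGC, TTTCGCGC or TTTGCCGC. In RefSeq windows on GRCm38.p6 from 250 bases before to 50 after a transcription start, searched on both strands, 2.26% of all 32851 windows held such a string. Windows were given for 34 members, and 6 of them had a match: Uhrf1, Dnmt1, Suv39h1, Ezh2, Suz12 and Cbx3 (17.6% of members beside 2.60% of all 27025 genes). By window, 11.8% of the 51 member windows held a match. The members were not matched to other genes in level or base content. The matches, in capitals within the gene strand read 5′ to 3′, are shown for all 6. Uhrf1, Dnmt1 and Suv39h1 were also highest in soft 3, soft 4, stiff 3 and stiff 4, an order near its background share among members. Whether the motif has a part in that order was not tested. Suv39h1 and the first Dnmt1 site hold the motif on the opposite strand.
Uhrf1, chr17:56304102-56304161 (+ strand): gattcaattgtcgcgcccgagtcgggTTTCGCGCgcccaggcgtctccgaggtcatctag
Dnmt1, chr9:20952809-20952868 (- strand): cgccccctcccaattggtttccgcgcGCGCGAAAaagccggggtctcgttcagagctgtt
Dnmt1, chr9:20952574-20952616 (- strand): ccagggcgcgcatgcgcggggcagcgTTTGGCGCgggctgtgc
Suv39h1, chrX:8074392-8074451 (- strand): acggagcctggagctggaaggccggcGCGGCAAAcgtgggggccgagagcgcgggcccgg
Ezh2, chr6:47594994-47595053 (- strand): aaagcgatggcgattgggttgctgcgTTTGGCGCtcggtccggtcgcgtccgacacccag
Suz12, chr11:79992861-79992920 (+ strand): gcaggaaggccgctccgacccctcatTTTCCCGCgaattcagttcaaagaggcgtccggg
Cbx3, chr6:51470422-51470481 (+ strand): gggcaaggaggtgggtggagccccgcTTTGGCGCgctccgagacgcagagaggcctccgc
Uhrf1 and Suv39h1 have 2 windows each, and the match was in 1 of them, 185 bases before that start in Uhrf1 and 64 before it in Suv39h1. Both Dnmt1 matches lie in 1 of its 3 windows, 219 bases before and 33 after that start. In these 3 genes the stretch printed lies inside the gene span given above, downstream of its outer end. Ezh2 has 1 window, with the match 3 bases after the start. Ezh2, Suz12 and Cbx3 hold the motif without the split between libraries, and Suv39h2 has none in its window. The cell cycle homology region (TTTGAA or TTCGAA) was found in 7 of 34 members, 20.6% beside 21.7% of all genes, among them Suv39h2. CCAAT was found in 16 of 34, 47.1% beside 41.1% of all genes. A match is a string in a window and says nothing about binding in these cells.

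Atrx and Daxx together deposit the histone variant H3.3 at heterochromatin and telomeres. Atrx had 499.7, 592, 373 and 292 CPM in soft 1 to soft 4 and 465, 472, 413 and 438 CPM in stiff 1 to stiff 4. Soft 4 was lowest and soft 2 highest, so that the spread lay within soft, and the log2 fold change was 0.03, 95% interval -0.40 to 0.45. Daxx ranged from 9.96 to 25.3 CPM, with the extremes in soft 2 and soft 4 (-0.05, 95% interval -0.67 to 0.57).

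Class I deacetylases are the catalytic subunits of the nuclear NuRD, Sin3, CoREST and NCoR corepressor complexes. Hdac1 had the lowest p of all members (0.164 before and 0.99997 after adjustment, edgeR). It had 29.4, 24.1, 30.4 and 22.6 CPM in soft 1 to soft 4 and 22.4, 12.97, 21.3 and 25.3 CPM in stiff 1 to stiff 4. Stiff 2 was lowest and stiff 4 lay inside the soft range, and soft and stiff means were 26.6 ± 3.85 (soft) and 20.5 ± 5.28 CPM (stiff) (mean ± SD of 4 libraries). The log2 fold change was -0.38, 95% interval -0.93 to 0.17; it was -0.60 among soft 1, soft 2, stiff 1 and stiff 2 alone and -0.18 among the other four alone. Its close relative Hdac2 had 154, 177, 135 and 129 CPM in soft 1 to soft 4 and 128, 166, 167 and 151 CPM in stiff 1 to stiff 4. No library stood out, the CV was 12.2%, and the log2 fold change was 0.04, 95% interval -0.32 to 0.40. The count ratio of Hdac2 to Hdac1 ran from 4.44 in soft 3 to 12.8 in stiff 2. Hdac3, the catalytic subunit of the NCoR complex, ranged from 53.4 to 80.2 CPM (log2 fold change -0.11, 95% interval -0.50 to 0.28). RefSeq names a pseudogene after Hdac1, so that some of its reads may fit both.

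Class IIa deacetylases bind MEF2 and carry the phosphorylation sites through which hypertrophic signals remove them from the nucleus. Hdac4 had 72.00, 81.9, 71.5 and 61.5 CPM in soft 1 to soft 4 and 87.8, 78.7, 85.6 and 71.5 CPM in stiff 1 to stiff 4. Stiff 1 and stiff 3 were highest, soft 4 was lowest, and the groups overlapped (log2 fold change 0.17, 95% interval -0.19 to 0.53). Hdac5 had 67.8, 47.8, 66.5 and 64.4 CPM in soft 1 to soft 4 and 68.6, 46.4, 71.7 and 44.2 CPM in stiff 1 to stiff 4 (-0.09, 95% interval -0.54 to 0.35). Soft 2, stiff 2 and stiff 4 formed its lower values. Hdac7 had 64.5, 78.4, 77.9 and 64.7 CPM in soft 1 to soft 4 and 98.7, 58.4, 56.1 and 54.9 CPM in stiff 1 to stiff 4 (-0.09, 95% interval -0.54 to 0.35). Stiff 1 was above all other libraries. Hdac9, whose loss sensitises the heart to hypertrophy, had 70.1, 67.8, 72.99 and 44.2 CPM in soft 1 to soft 4 and 68.6, 72.4, 83.9 and 59.6 CPM in stiff 1 to stiff 4 (0.16, 95% interval -0.26 to 0.58). Soft 4 was lowest. None of the 4 passed the test, and Hdac4 and Hdac9 had higher estimates on stiff and Hdac5 and Hdac7 lower ones.

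**Figure D4:**
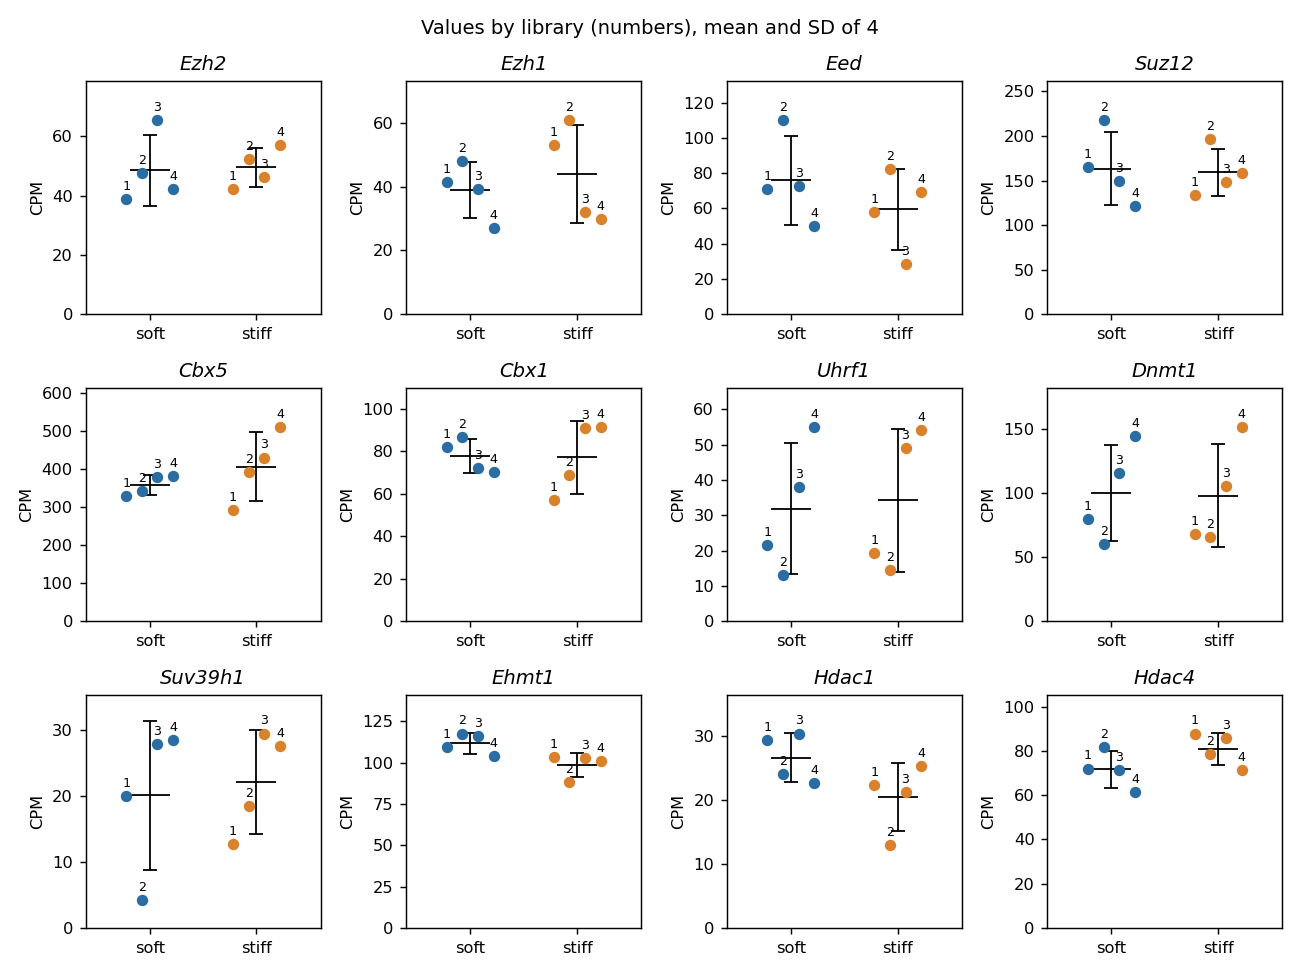
CPM of 12 members by library (points, numbers give the library; blue soft, orange stiff) with the mean and SD of the 4 libraries of each substrate. Ehmt1 is the panel in which soft and stiff do not overlap, and in Uhrf1 and Dnmt1 libraries 3 and 4 lie above libraries 1 and 2 on both substrates.

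Other genes of the same pathways were counted from fixed lists, and 0 were called in every list. Of 30 further Polycomb genes 12 had higher and 18 lower estimates on stiff (median log2 fold change -0.05), and 0 had an unadjusted p under 0.05. Among them Pcgf6, a subunit of a variant PRC1, stood at 20.4 ± 5.07 (soft) and 28.3 ± 8.54 CPM (stiff) and the PRC1 subunit Phc2 at 72.6 ± 10.6 (soft) and 56.6 ± 14.04 CPM (stiff) (mean ± SD of 4 libraries). Of 26 tested genes of H3K9 and H4K20 methylation 19 had higher and 7 lower estimates (median 0.10), beside 51.9% lower among all tested genes. Morc2a, which works with the HUSH silencing complex, stood at 91.1 ± 4.09 (soft) and 106 ± 3.93 CPM (stiff), and Atf7ip, the nuclear partner of Setdb1, at 83.3 ± 12.4 (soft) and 96.6 ± 3.48 CPM (stiff). Setdb1 itself was lower in its estimate, and none of these passed.

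Of 19 further DNA methylation genes 10 had higher and 9 lower estimates, and 1 had an unadjusted p under 0.05. This was Zbtb33 (Kaiso, a reader of methylated CpG), with 13.8 ± 3.32 (soft) and 21.7 ± 4.90 CPM (stiff) and a log2 fold change of 0.66 (edgeR adjusted p = 0.99997), higher on stiff in its mean. In the list of 37 further deacetylases, corepressors and partners of class IIa enzymes, 12 estimates were higher and 25 lower (median -0.07). Hdac10 stood at 10.5 ± 4.06 (soft) and 6.47 ± 3.40 CPM (stiff), and the NuRD subunits Chd3 and Mta3 at 85.9 ± 14.5 (soft) and 70.96 ± 9.62 CPM (stiff) and at 43.1 ± 2.54 (soft) and 35.4 ± 5.88 CPM (stiff). Mef2a, a MEF2 factor bound by class IIa deacetylases, stood at 309 ± 53.6 (soft) and 315 ± 18.3 CPM (stiff), and Camk2d, a kinase upstream of them, at 446 ± 54.5 (soft) and 433 ± 63.8 CPM (stiff). Of 15 genes of H3 variants and their chaperones, 10 had lower estimates (median -0.08), and the S phase chaperone gene Chaf1a stood at 16.2 ± 11.04 (soft) and 11.2 ± 5.91 CPM (stiff). Of 19 trithorax and H3K27 acetylation genes, which oppose Polycomb, 11 had higher and 8 lower estimates (median 0.02), with Wdr5, a core subunit of H3K4 methyltransferases, at 31.4 ± 7.86 (soft) and 39.3 ± 9.67 CPM (stiff). The 35 proliferation genes had 21 higher and 14 lower estimates on stiff. That count was moved by each library: between 23 and 27 were lower when soft 1, soft 2, stiff 3 or stiff 4 was left out, and between 3 and 8 when soft 3, soft 4, stiff 1 or stiff 2 was left out.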

How the data were processed

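RNA was sequenced from 4 libraries on soft and 4 on stiff PDMS. The authors deposited whole-number read counts per gene for the coding table; per the submitters' processing notes, FastQC 0.11.2, TopHat2 2.0.14 with Bowtie2, HTSeq 0.6.1, Cufflinks, DESeq2 and edgeR were used with genome build GRCm38. No label or header gives strand handling, multimapping rules or the tool behind each value. The non-coding table was not used here. Genes were named from their Ensembl IDs, with a symbol for 29150 of 29844; genes without one held 0.106% of counts. Replicates are numbered by the last digit of the library code in the labels.

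Counts were tested with edgeR 4.0.16 in R 4.3.3 (filterByExpr with a minimum count of 10 and total of 15, TMM factors, robust quasi-likelihood F test, substrate as the single term, all 8 libraries), with Benjamini-Hochberg adjustment over all 14059 tested genes. DESeq2 1.42.0 and limma 3.58.1 (voom) were alternatives. CPM values use TMM-scaled library sizes. The procedure was tested on simulated counts, drawn independently for each library and so without the split seen between these libraries. Library totals were 27646471 to 34693673 counts. All 28 pairs of libraries differed beyond sampling noise (chi-square per degree of freedom 45.8 to 237), and intervals of the log2 fold change, which are unadjusted, include that scatter.

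The members and gene lists were chosen with earlier results of these data known, so no list was tested. Values in every library are given for the 12 members with the lowest p, the 6 with the highest mean CPM, 15 core genes of their class and members failing the filter. Suv39h1, Suv39h2, Kdm6a's relative Uty and the counts of Dnmt3b, Cbx7 and Cbx8 were added after their values were seen. From each companion list the genes named come from the 4 with the lowest p and the 2 with the highest level. Deviations from the group mean of same-numbered soft and stiff libraries correlated at 0.104, 0.181, 0.128 and 0.305 across genes, all above 0.1, which met the criterion for pairing. Soft 2 with stiff 1 (0.130) and soft 1 with stiff 2 (0.112) correlated as much as the pair numbered 1, so these correlations do not set that pair apart. By chi-square per degree of freedom the same-numbered pairs were nearer for numbers 1 and 2, at 47.6 (number 1) and 45.8 (number 2). Soft 1 with stiff 2 was at 52.3 and soft 2 with stiff 1 at 58.6. For number 3 the pair was at 55.7. For number 4 it was at 120.7, and soft 4 and stiff 4 were each nearer to soft 3 (115.8 and 111.7). The labels do not say that the number marks a shared litter or culture. The reported fit and its intervals therefore have no term for it and include any scatter between pairs. Fits with the number as a block are given as alternatives. A planned correlation of members with the proliferation score was not computed, because the libraries form separate clusters on it, and levels per gene length were not computed, since no exon lengths were used here. Promoter sequences are RefSeq's on GRCm38.p6.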

Additional observations from a re-analysis of the deposited data

Results flagged for a closer look

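In 94 groups of 4 libraries, the gap of an end value to its neighbour was set against Dixon's 95% critical value, which chance passes in about 1 of 20 groups. The following values stood apart. Bmi1 was at 103.9 CPM in stiff 4, with a gap of 0.877 of the group's range, and soft 1 had nearly the same level. Hdac7 was at 98.7 CPM in stiff 1 (gap 0.919). Ehmt1 was at 88.0 CPM in stiff 2 (gap 0.867) and Kdm6b at 5.04 CPM in stiff 2 (gap 0.838), both below the other stiff libraries. The cardiomyocyte marker sum was 39197 CPM in soft 4 (gap 0.917), above the other soft libraries.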

How the results depend on the processing

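No alternative brought a member past an adjusted p of 0.05: 0 of 684 values over 38 members and 18 settings passed. The settings were other scaling, filters, DESeq2, limma-voom, the replicate block, each library left out, and 3 splits by library number chosen after seeing the data. The count of all coding genes called went from 0 to 8 with limma-voom and the replicate block, and members at an unadjusted p under 0.05 from 0 to 1 there (Eed); the block changed no other call. All coding genes at an unadjusted p under 0.05 were 130 in the reported fit, 473 with no filter, 322 with DESeq2, 360 with the replicate block, 432 with limma-voom and the block, 265 with the term for library number, 377 and 295 with libraries 1 and 2 or 3 and 4 alone, and 122 to 272 with a library left out. These counts have unlike totals: the fit with no filter and DESeq2 took all genes with any count, and fits on fewer libraries were filtered anew. Between 22 and 29 members had lower estimates on stiff when a library was left out. For 15 of 38 members the sign held throughout: 12 lower (Cbx2, Cbx8, Dnmt3a, Eed, Ehmt1, Ehmt2, Hdac1, Jarid2, Kdm4a, Kdm4b, Ring1 and Setdb1) and 3 higher (Cbx5, Hdac4 and Hdac9). The settings reuse the same libraries, and no such share of all tested genes is given, so no direction is read from these counts. The log2 fold change turned sign as follows, and the cause was not tested. With soft 3, soft 4, stiff 3 and stiff 4 alone it was -0.097 for Ezh1, -0.053 for Ezh2, 0.18 for Suz12, 0.31 for Rnf2, -0.14 for Kdm6a and 0.36 for Cbx1. With soft 1, soft 2, stiff 1 and stiff 2 alone it was -0.39 for Bmi1, 0.36 for Cbx7, -0.042 for Cbx3, -0.90 for Suv39h2, 0.11 for Trim28, 0.24 for Dnmt3b, -0.036 for Uhrf1, -0.22 for Atrx, 0.38 for Daxx, -0.17 for Hdac2, 0.18 for Hdac3 and 0.14 for Hdac7. With limma-voom it was 0.020 for Rnf2 and 0.015 for Daxx. With edgeR and the replicate block it was 0.024 for Rnf2 and 0.021 for Daxx. With limma-voom and the replicate block it was 0.014 for Rnf2. With a term for libraries 1 and 2 against 3 and 4 it was 0.036 for Rnf2 and -0.025 for Suv39h2. With a library left out, the estimates that turned spanned Atrx from -0.12 to 0.21, Bmi1 from -0.15 to 0.23, Cbx1 from -0.11 to 0.11, Cbx3 from -0.059 to 0.23, Daxx from -0.25 to 0.16, Dnmt1 from -0.33 to 0.21, Dnmt3b from -0.76 to 0.071, Ezh1 from -0.025 to 0.32, Ezh2 from -0.065 to 0.21, Hdac2 from -0.015 to 0.14, Hdac5 from -0.22 to 0.013, Kdm4c from -0.045 to 0.25, Kdm6a from -0.016 to 0.20, Kdm6b from -0.32 to 0.058, Rnf2 from -0.18 to 0.18, Suv39h1 from -0.20 to 0.36, Suv39h2 from -0.091 to 0.61, Suz12 from -0.15 to 0.14 and Uhrf1 from -0.21 to 0.51. Genes with lower estimates in the DNA methylation list went from 9 to 5 without soft 2, and in the trithorax list from 8 to 5 without soft 2 or stiff 2. Cbx7, Cbx8 and Dnmt3b had at most 215 counts in every library; for Dnmt3b the 0 in stiff 3, a library of 32412633 counts, goes with the wide interval.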
